A study of Rattus norvegicus with 2 samples.

Results

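The RAB GTPases are the subject here: the rows of the expression table whose symbol is Rab plus a number, with at most 1 letter and 1 further digit after it. The rule selects RAB proteins alone and leaves out their partners. It found 57 genes among the 18049 rows of the table, by a rule that uses names alone, although it was proposed with earlier results of these data known. Of these, 51 had a mean of at least 1 CPM (counts scaled to a common library total) and are called measured, as were 13518 genes in all. The gene IDs of all 57 carry the same symbol in the rat RefSeq annotation.

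In mammalian cells RAB proteins are small GTPases that give each membrane compartment its identity. A guanine nucleotide exchange factor (GEF) loads a RAB with GTP on its membrane, where it recruits effectors such as tethers, motors and coats, and a GTPase-activating protein (GAP) switches it off. Prenyl groups anchor the protein, and GDP dissociation inhibitors (GDI) carry the inactive form through the cytosol. Oligodendrocytes make large amounts of membrane when they wrap axons, and their myelin proteins and lipids reach the surface through the secretory and endosomal routes that RAB proteins mark.

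The cells were wild-type rat oligodendrocyte precursors, prepared from the cortex of pups of postnatal day 2 to 4 by immunopanning. In the siHsc70 group they were electroporated with an siRNA against Hsc70, the constitutive HSP70 chaperone encoded by Hspa8, and in the siSCR group with a scrambled siRNA. Both groups were then moved to differentiation medium with 60 nM of thyroid hormone (T3) and without PDGF-AA, bFGF and NT3. By the design text the RNA was taken on day 2 of T3, and the cells at that point are immature oligodendrocytes.

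Each group had 1 library, so there is no replicate check, no test between the groups and no p-value. Total estimated counts were 18130768 in siHsc70 and 19085587 in siSCR. Hspa8 was at 507 CPM in siHsc70, against 1399 CPM in siSCR. A difference is the log2(CPM + 1) of the siHsc70 library less that of the siSCR library, and the pseudocount of 1 makes it smaller for low genes. A gene is called 2-fold or 1.5-fold higher or lower when this difference passes the log2 of that fold. Ratios of single genes use no pseudocount and carry a 95% exact (Clopper-Pearson) interval, which covers counting error only and not the spread between cultures. The label was checked on marker genes: all 10 oligodendrocyte lineage markers were measured, summing to 3038 CPM in siHsc70 and 8133 CPM in siSCR, with 7 of the 10 at least 2-fold lower. Of 6 microglial markers, 4 were in the table and 1 was measured. That was Cd68, at 4.34 CPM in siHsc70 and 1.66 CPM in siSCR, a ratio of 2.61 (1.71 to 4.07). Aif1 had 0.0556 CPM in siHsc70 and 0 counts in siSCR. The others found went the other way: P2ry12 had 5 counts in siHsc70 and 15 in siSCR, and Csf1r had 2 and 8. The 5 astrocyte markers, all measured, summed to 2673 CPM in siHsc70 and 3273 CPM in siSCR. The 6 fibroblast markers (4 measured) summed to 100.03 and 40.5 CPM in the same order, mostly through Col1a1 at 73.8 and 24.3 CPM. Col1a2 and Pdgfrb were also higher in siHsc70, while Col3a1 had a ratio of 0.802 (0.495 to 1.29). Dcn had 1 count in siHsc70 and 9 in siSCR, and Lum had 0 and 2. The 3 endothelial markers found (2 measured) summed to 4.78 CPM in siHsc70 and 8.37 CPM in siSCR. The astrocyte markers were split: Gfap was 2.12-fold and Aqp4 4.13-fold lower in siHsc70, while Aldh1l1, Gja1 and Slc1a3 had ratios of 1.61, 1.41 and 1.07, and the median difference of the list was 0.098. In such bulk samples fewer cells of a type and less RNA per cell cannot be told apart.

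The median RAB gene was at about the same level in both libraries, while single members stood well apart. Of the 51 measured members, 2 were at least 2-fold lower in siHsc70 (3.92%), Rab9b and Rab33a, where 5.14% of all measured genes were. Another 2 were at least 2-fold higher (3.92%), Rab1b and Rab26, where 2.29% of all measured genes were. At 1.5-fold, 7 members were lower (13.7%, beside 12% of all measured genes) and 4 were higher (7.84%, beside 9.65%). The median difference was -0.0065 over the members and -0.0034 over all measured genes, and the quartiles of the members were -0.24 and 0.24. These shares are near the background, and nothing about the family as a whole is read from them.

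**Figure D1:**
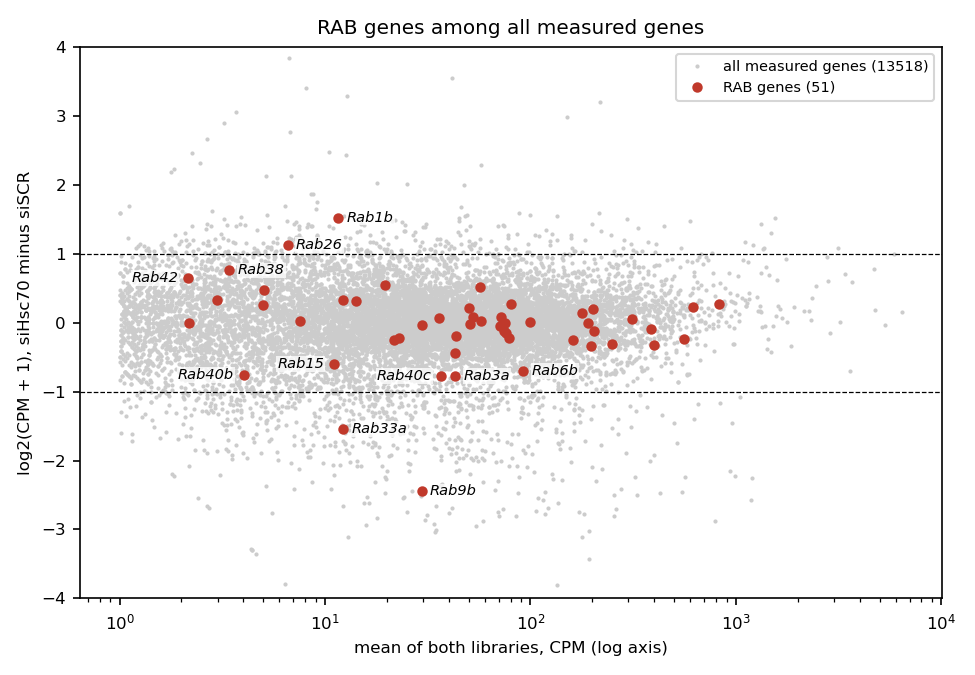
Each point is a measured gene, with the mean of both libraries in CPM on a log axis against the difference in log2(CPM + 1), siHsc70 minus siSCR. The 51 RAB genes are red and those past 1.5-fold are named, and dashed lines mark the 2-fold rule. Rab9b and Rab33a lie below the lower line, Rab1b and Rab26 above the upper one, and 3 other genes lie beyond the axis limits of -4 and 4.

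Counting error alone was small beside many of these differences: the interval lay wholly below 1 for 21 members and wholly above 1 for 15, while over all measured genes it did so for 33.8% and 32.5%.

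The level of one gene can be set beside another only per length, for which the deposited TPM (a length-scaled share of all transcripts) is used. All 57 rows together came to 5426 TPM in siHsc70 and 6081 TPM in siSCR. On this scale the median of all measured genes was itself shifted by -0.13, as was that of the RAB genes (-0.13). By TPM, 2 measured members were at least 2-fold lower (5.88% of all measured genes) and 2 higher (1.4%), and 8 were at least 1.5-fold lower (15.3%) and 4 higher (6.42%). Rab7a headed the family with 623 TPM in siHsc70 and 586 TPM in siSCR, and Rab31 came next with 529 and 485 TPM in the same order of libraries. Both were ranked the same way in the 2 libraries. The other 3 of the top 5 by mean TPM were Rab5c, Rab6a and Rab10, and these 5 genes made up 38.5% of the RAB TPM in siHsc70 and 37.2% in siSCR. With 1 library a group, the order of neighbours in this ranking has no replicate error to be read against. Rab10 was 7th in siHsc70 and 5th in siSCR, and Rab9b moved furthest of those named here, standing 48th in siHsc70 and 36th in siSCR.

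**Figure D2:**
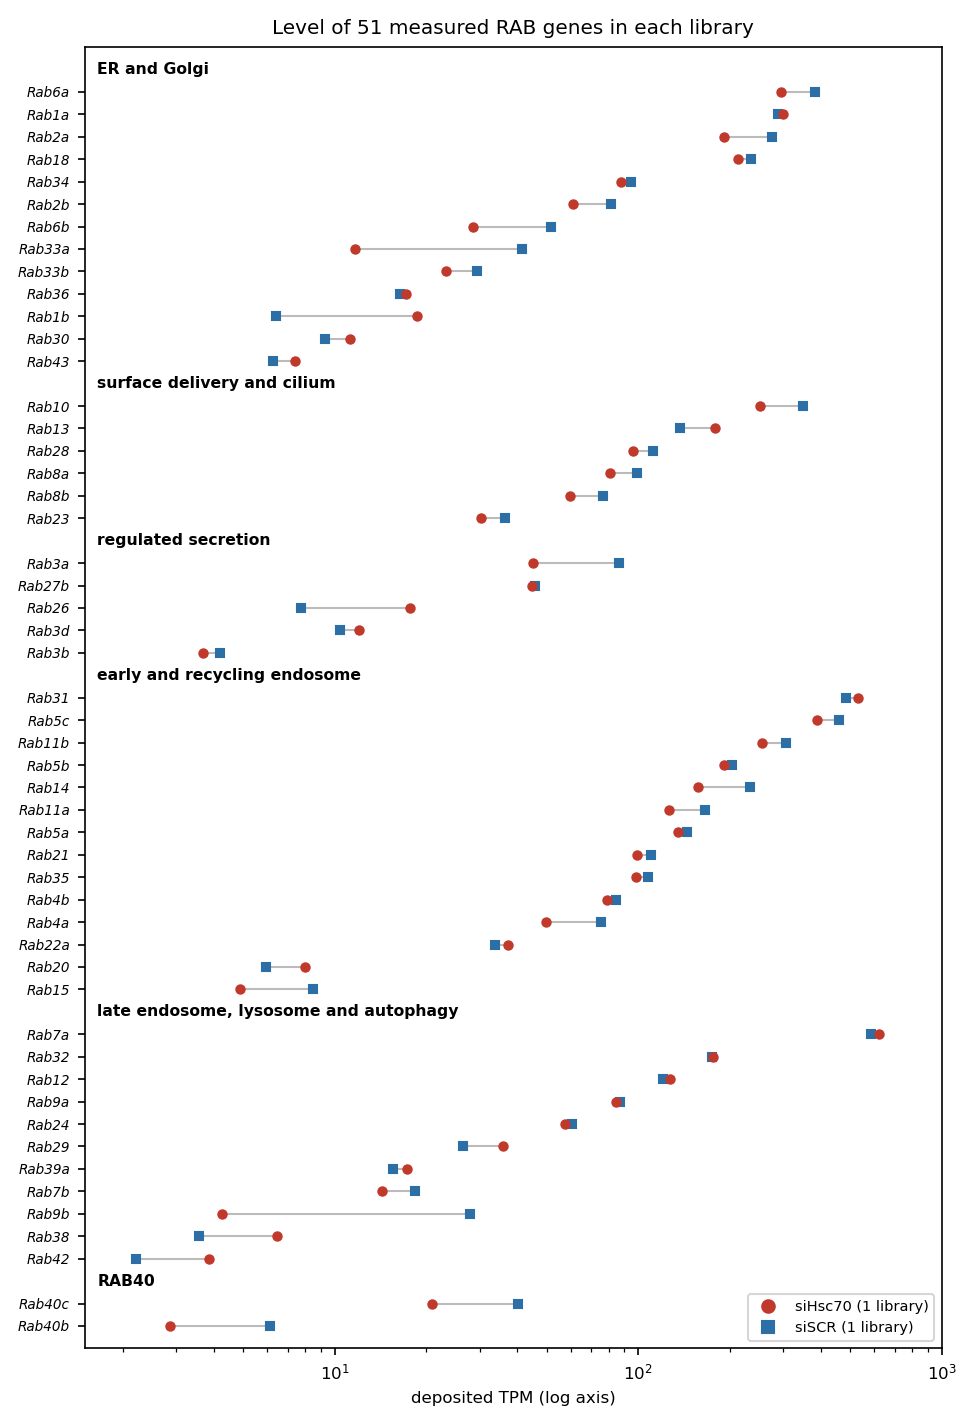
Deposited TPM of the 51 measured RAB genes on a log axis, grouped by role, with siHsc70 as red circles and siSCR as blue squares. Most pairs of symbols nearly touch, and the longest gaps belong to Rab9b (4.24 against 27.96 TPM), Rab33a (11.6 against 41.5 TPM), Rab1b (18.7 against 6.42 TPM) and Rab26 (17.6 against 7.75 TPM).

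Because Rab9b and Rab6b differed more than their close relatives Rab9a and Rab6a, the promoter windows of both pairs are shown. Rab33a and Rab1b also differed more than their relatives Rab33b and Rab1a, but no window was available for them. Each runs from 250 bases before to 50 bases after the RefSeq start of the gene (build GRCr8), which may not be the build the authors used. Capitals mark 5 motifs searched on both strands: the SOX core as ACAAAG or ACAATG, the heat shock element GAANNTTC, the E-box CACGTG and the GC box GGGCGG. The windows are chrX:105023823-105024122 on the minus strand for Rab9b, chrX:31609839-31610138 on the plus strand for Rab9a, chr8:112573973-112574272 on the plus strand for Rab6b and chr1:164369783-164370082 on the plus strand for Rab6a.
Rab9b: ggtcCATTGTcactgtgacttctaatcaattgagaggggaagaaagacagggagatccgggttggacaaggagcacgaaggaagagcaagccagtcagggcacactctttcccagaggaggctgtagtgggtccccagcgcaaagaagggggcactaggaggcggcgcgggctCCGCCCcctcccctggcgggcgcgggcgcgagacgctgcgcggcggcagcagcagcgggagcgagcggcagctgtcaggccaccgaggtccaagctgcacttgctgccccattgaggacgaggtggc
Rab9a: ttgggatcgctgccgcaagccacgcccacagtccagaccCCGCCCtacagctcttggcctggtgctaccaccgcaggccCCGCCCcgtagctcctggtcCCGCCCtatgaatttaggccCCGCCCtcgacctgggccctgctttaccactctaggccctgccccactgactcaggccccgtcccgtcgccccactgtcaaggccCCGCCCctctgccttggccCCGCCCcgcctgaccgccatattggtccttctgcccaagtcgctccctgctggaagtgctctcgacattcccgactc
Rab6b: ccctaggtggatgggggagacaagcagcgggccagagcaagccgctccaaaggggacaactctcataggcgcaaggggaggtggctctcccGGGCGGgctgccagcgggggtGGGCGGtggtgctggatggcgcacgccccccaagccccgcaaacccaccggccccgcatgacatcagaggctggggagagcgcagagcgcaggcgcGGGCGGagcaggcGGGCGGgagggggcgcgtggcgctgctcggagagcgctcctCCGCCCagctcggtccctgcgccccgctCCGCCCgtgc
Rab6a: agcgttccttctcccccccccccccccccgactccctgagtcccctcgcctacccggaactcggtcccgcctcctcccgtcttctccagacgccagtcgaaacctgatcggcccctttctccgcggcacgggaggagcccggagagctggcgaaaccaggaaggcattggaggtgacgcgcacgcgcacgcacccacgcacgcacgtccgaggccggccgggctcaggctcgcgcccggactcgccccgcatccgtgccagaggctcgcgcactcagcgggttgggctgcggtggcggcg

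In these windows Rab9b held 1 SOX core, printed as its reverse complement CATTGT at position -246 from the start, and 1 GC box. Rab9a held 6 GC boxes and none of the other motifs. Rab6b likewise held 6 GC boxes, and Rab6a held none of the 5 motifs. Windows were found for 46 of the 57 members, 47 windows in all, and for 7 of the 11 members past 1.5-fold. Those past 1.5-fold without a window were Rab33a, Rab1b, Rab26 and Rab38. A GC box was in 37 of these 47 windows (78.7%), against 33.1% of 33469 windows of all genes. The SOX cores ACAAAG and ACAATG were each in 2 of 47 (4.26%), against 18.8% and 13.2% of all windows, the heat shock element in 1 of 47 (2.13%, against 8.59%) and the E-box in 4 of 47 (8.51%, against 6.42%). The RAB windows had a median GC content of 63%, against 51.7% in all windows. No marked matches overlap in the windows shown. These are matches of letters, not sites of binding.

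Members of the early secretory route come first. RAB1 and RAB2 proteins act between the endoplasmic reticulum and the Golgi, and RAB6 in traffic within and back from the Golgi. Of 13 measured members placed at the endoplasmic reticulum and Golgi, 2 were at least 1.5-fold lower and 1 was higher. By that rule 12% of all measured genes were lower and 9.65% higher. Rab1a was at 215 CPM in siHsc70 and 188 CPM in siSCR, a ratio of 1.15 (1.09 to 1.20). Rab2a was at 174 CPM in siHsc70 and 220 CPM in siSCR, a ratio of 0.790 (0.754 to 0.828). Rab18, known for its place on lipid droplets and the endoplasmic reticulum, was level at 189.6 and 189.8 CPM in the same order.

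Rab1b, the second RAB1 gene, had 319.06 estimated counts in siHsc70 and 106.35 in siSCR. That is 17.7 CPM in siHsc70 against 5.51 CPM in siSCR, a 3.22-fold higher level (2.58 to 4.05) and the largest upward difference among the measured RAB genes. Its counts are not whole numbers, as happens when reads are divided between rows, so this ratio is uncertain. In the RAB1 pair, Rab1b made up 5.86% of the TPM in siHsc70 and 2.17% in siSCR.

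Rab33a encodes a Golgi and post-Golgi RAB studied in vesicle transport to growing axons. It had 104 counts in siHsc70 and 360 in siSCR, or 5.78 CPM against 18.7 CPM, and was 3.24-fold lower (2.59 to 4.06). Rab33b, its Golgi relative that also binds the autophagy protein ATG16L1, was at 40.5 CPM in siHsc70 and 46.4 CPM in siSCR, 1.14-fold lower. Rab33a thus made up 33.3% of the TPM of the pair in siHsc70 and 58.5% in siSCR.

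The RAB6 genes differed in the same direction. Rab6a, the widely expressed form, was at 510.1 CPM in siHsc70 and 603 CPM in siSCR and was 1.18-fold lower (1.15 to 1.21). Rab6b, the form known mainly from neurons, was at 69.8 CPM in siHsc70 and 114.5 CPM in siSCR and was 1.64-fold lower (1.53 to 1.76). Rab30, another Golgi RAB, was near level in CPM (29.2 in siHsc70, 29.9 in siSCR) but higher in TPM (11.2 in siHsc70, 9.28 in siSCR). For this gene the length implied by counts and FPKM in siHsc70 was 0.736 times that in siSCR, relative to the median gene, so the deposited length correction differed between the libraries. The remaining members of this group, Rab2b, Rab34, Rab36 and Rab43, had ratios from 0.860 to 1.35.

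**Figure D3:**
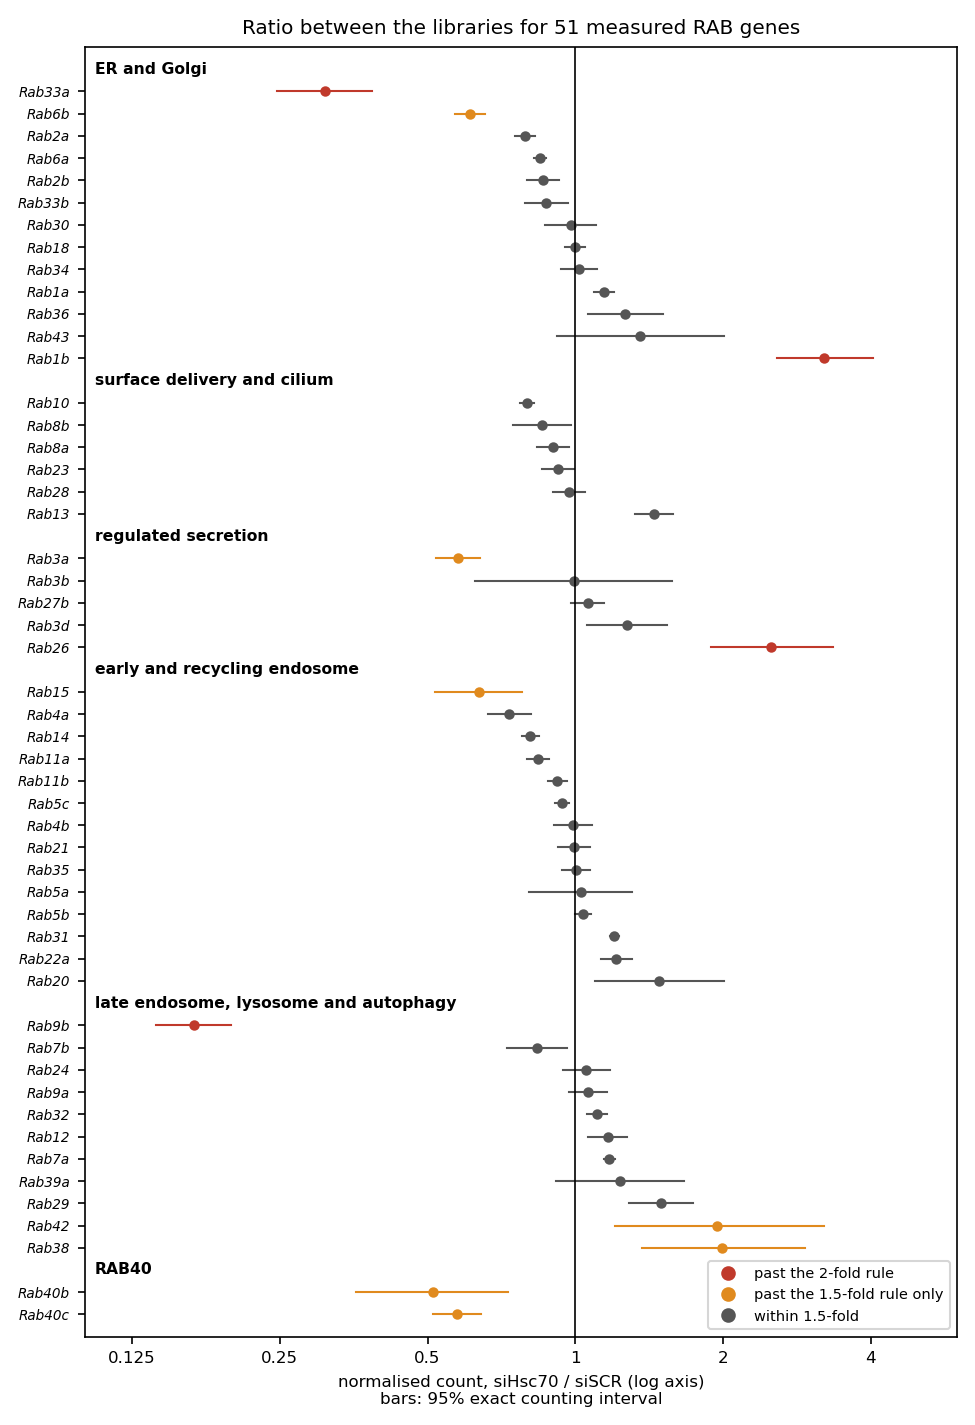
Ratio of normalised counts, siHsc70 over siSCR, on a log axis for the 51 measured RAB genes, grouped by role and ordered within each group. Bars are 95% exact counting intervals, red marks genes past the 2-fold rule and orange those past 1.5-fold only. Rab9b lies furthest to the left at 0.167, and Rab1b furthest to the right at 3.22.

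RAB8, RAB10 and RAB13 proteins carry vesicles from the Golgi and endosomes to the plasma membrane, and RAB8 and RAB23 also act at the primary cilium. Of the 6 measured members of this group 0 were past 1.5-fold, where 12% of all measured genes were lower and 9.65% higher. By any amount, 5 of the 6 (83.3%) were below 0, as were 50.3% of all measured genes. Under upper-quartile scaling 4 of the 6 were. Rab10 was at 356 CPM in siHsc70 and 446 CPM in siSCR, 1.25-fold lower (1.21 to 1.29). Rab8a was at 72.0 CPM in siHsc70 and 79.8 CPM in siSCR, 1.11-fold lower (1.03 to 1.19). Rab13, which serves the delivery of junction proteins in epithelia, was the exception. It was at 67.1 CPM in siHsc70 and 46.4 CPM in siSCR, a ratio of 1.45 (1.33 to 1.58). Rab8b, Rab23 and Rab28 had ratios from 0.856 to 0.971.

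The RABs of regulated secretion went in both directions. RAB3 and RAB27 proteins dock secretory vesicles at the plasma membrane, and RAB26 acts on secretory granules and synaptic vesicles. The table holds 9 such genes, of which 5 were measured, and Rab3c, Rab27a, Rab37 and Rab44 were below 1 CPM in the mean. Rab3a had 566 counts in siHsc70 and 1051 in siSCR, or 31.5 CPM against 54.6 CPM, and was 1.74-fold lower (1.57 to 1.93). Rab3d was at 13.8 CPM in siHsc70 and 10.8 CPM in siSCR, a ratio of 1.28 (1.06 to 1.54), and Rab3b was at 2.17 and 2.18 CPM in the same order. The RAB3 genes together came to 61.4 TPM in siHsc70 and 102 TPM in siSCR, and Rab3a supplied 73.4% and 84.7% of it in that order.

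Rab26 had 169 counts in siHsc70 and 72 in siSCR, or 9.40 CPM against 3.74 CPM. It was 2.51-fold higher (1.90 to 3.36), the opposite direction to Rab3a. Rab27b made up 98.7% of the TPM of the RAB27 pair in siHsc70 and 98.5% in siSCR. It was at 74.3 CPM in siHsc70 and 70.1 CPM in siSCR, a ratio of 1.06 (0.982 to 1.14). Rab27a had 15.03 and 17.00 counts in siHsc70 and siSCR, too few to show a difference of this kind (ratio 0.944, 0.439 to 2.01).

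Several of these genes are abundant in neurons, and neuronal transcripts also differed. All 7 neuronal markers searched were measured, 5 of them at least 1.5-fold lower and 1 higher (12% and 9.65% of all measured genes). Their sum was 485 CPM in siHsc70 and 735 CPM in siSCR. Most of it was Map2, at 340 CPM in siHsc70 and 526 CPM in siSCR. Dcx was at 6.23 CPM in siHsc70 and 33.2 CPM in siSCR, while Tubb3 was at 79.5 and 70.7 CPM and Snap25 at 20.1 and 10.0 CPM in the same order. The part of these transcripts in the differences of Rab3a, Rab6b, Rab15 and Rab26 was not tested, nor was that of the lower oligodendrocyte markers.

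Most endosomal RABs of entry and recycling were within 1.5-fold, as were most of all measured genes. RAB5 proteins govern the early endosome, RAB4 and RAB35 fast recycling and RAB11 slow recycling. Beside 12% of all measured genes lower and 9.65% higher, 1 of 14 measured members was past 1.5-fold. That was Rab15, an endosomal RAB best known from neurons, with 154 counts in siHsc70 and 259 in siSCR (8.56 against 13.5 CPM, 1.57-fold lower, 1.28 to 1.93). Rab35, which has been linked to exosome release by oligodendrocytes, was at 99.9 CPM in siHsc70 and 99.4 CPM in siSCR, a ratio of 1.00 (0.942 to 1.07). Rab31, studied in oligodendrocytes under the name Rab22b in traffic from the Golgi to endosomes, was slightly higher. It was at 905 CPM in siHsc70 and 753 CPM in siSCR, a ratio of 1.20 (1.18 to 1.23).

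The RAB11 genes were both slightly lower, Rab11a at 147 CPM in siHsc70 and 175 CPM in siSCR (1.19-fold, 1.13 to 1.25) and Rab11b at 196 and 214 CPM in the same order. Rab4a was at 36.2 CPM in siHsc70 and 49.4 CPM in siSCR, a ratio of 0.733 (0.663 to 0.811), whereas Rab4b was at 50.7 and 51.2 CPM. Rab14, which acts between the Golgi and early endosomes, was at 224 CPM in siHsc70 and 277 CPM in siSCR, a ratio of 0.810 (0.778 to 0.844). Rab20, Rab21 and Rab22a, the last a close relative of Rab31, had ratios from 0.993 to 1.48.

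Rab5c was at 373 CPM in siHsc70 and 398 CPM in siSCR, and Rab5b at 319 and 308 CPM in that order. The third RAB5 gene, Rab5a, had only 136.84 counts in siHsc70 and 142.51 in siSCR (ratio 1.03, 0.805 to 1.3). A further row, Rab5al1, lies outside the rule and had 2576 and 2992 counts, both rows with non-whole values. At similar TPM, Rab5a had about 1.01 counts per TPM and Rab5al1 19.7 in siHsc70, so the level of Rab5a per length rested on far fewer reads. The sum of both rows was 151 CPM in siHsc70 and 163 CPM in siSCR, 1.08-fold lower (1.03 to 1.14).

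Late endosomal and lysosomal RABs held the member with the largest difference. RAB7 directs late endosomes to lysosomes, and RAB9 returns mannose 6-phosphate receptors from late endosomes to the Golgi. Of 11 measured members 1 was at least 1.5-fold lower and 2 were higher, beside 12% and 9.65% of all measured genes. In CPM 2 of the 11 were below 0 by any amount (18.2%, beside 50.3% of all measured genes), with a median of 0.22 beside -0.0034. In TPM 4 of the 11 were (36.4%, beside 63.2%), with a median of 0.078 beside -0.13.

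Rab9b, the second RAB9 gene, had 152.21 counts in siHsc70 and 973.30 in siSCR. At 8.45 CPM in siHsc70 against 50.6 CPM in siSCR it was 5.98-fold lower (5.04 to 7.15). Its counts are not whole numbers and may be divided with another row. Rab9a differed little, at 54.2 CPM in siHsc70 and 51.0 CPM in siSCR, a ratio of 1.06 (0.972 to 1.16). The count of Rab9a in siHsc70, 974.74, is not whole either, so both rows may hold divided reads. As deposited, the difference lay in 1 gene of the pair. Rab9b supplied 4.79% of the RAB9 TPM in siHsc70 and 24.2% in siSCR.

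**Figure D4:**
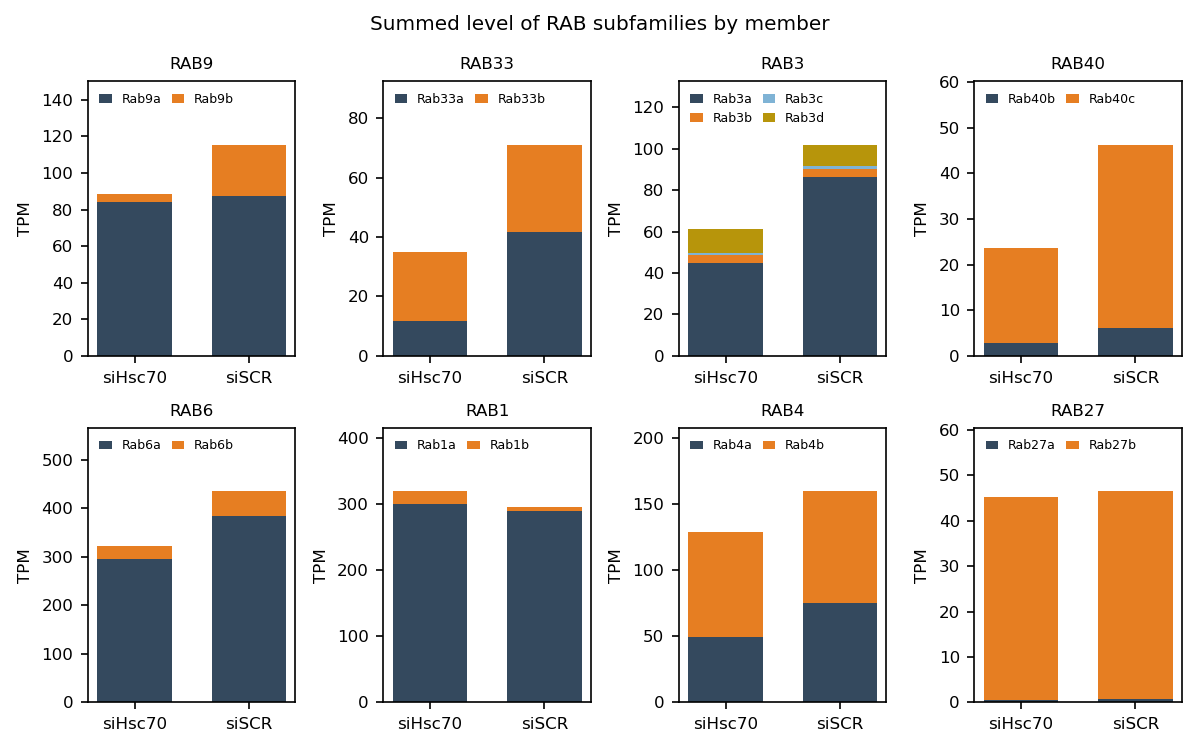
Deposited TPM of 8 RAB subfamilies, stacked by member, with siHsc70 left and siSCR right in each panel and each axis starting at 0. The RAB9 and RAB33 bars differ mainly through Rab9b and Rab33a, both RAB40 members are lower in siHsc70, and the RAB27 bars are about equal at 45.3 and 46.5 TPM.

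Rab7a was at 666 CPM in siHsc70 and 568 CPM in siSCR, a ratio of 1.17 (1.14 to 1.20). Rab32 and Rab38, relatives that serve melanosomes and other lysosome-related organelles, were both on the higher side. Rab32 was at 187 CPM in siHsc70 and 169 CPM in siSCR. Rab38 had 82 counts in siHsc70 and 44 in siSCR, a ratio of 1.99 (1.37 to 2.95).

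Rab29, a RAB of the Golgi and lysosome that recruits the kinase LRRK2, stood just within 1.5-fold at 23.5 CPM in siHsc70 and 15.7 CPM in siSCR (ratio 1.49, 1.29 to 1.74). Rab42 had 51.28 and 28.44 counts in siHsc70 and siSCR and a ratio of 1.95 (1.21 to 3.21). This is a low gene with non-whole counts. The other members, Rab7b, Rab12, Rab24 and Rab39a, had ratios from 0.835 to 1.23.

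RAB40 proteins differ from other RABs in carrying a SOCS box, through which they join cullin 5 ubiquitin ligases. Both measured RAB40 genes were past 1.5-fold in the lower direction, as were 12% of all measured genes. Rab40c was at 26.9 CPM in siHsc70 and 46.8 CPM in siSCR, 1.74-fold lower (1.56 to 1.95). Rab40b had 49 counts in siHsc70 and 102 in siSCR, 1.95-fold lower (1.37 to 2.79). Together they came to 23.7 TPM in siHsc70 and 46.2 TPM in siSCR.

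The 13 subfamilies with more than 1 gene in the table differed in how alike their members were. Both members were lower by any amount in the RAB2, RAB6, RAB8, RAB11, RAB33 and RAB40 pairs, under each scaling run. Both were higher in the RAB1 pair, Rab1a by 0.19 and Rab1b by 1.53 in CPM (0.054 and 1.41 in TPM). Of all measured genes 50.3% were below 0 in CPM, so nothing is read from these directions. In the RAB9 pair 1 gene was past 2-fold and the other within counting error, and in the RAB33 pair Rab33a was past 2-fold and Rab33b within 1.5-fold. The RAB8 balance hardly moved, with Rab8a at 57.6% of the pair's TPM in siHsc70 and 56.3% in siSCR.

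The 6 members below the minimum were Rab3c, Rab19, Rab25, Rab27a, Rab37 and Rab44. Rab44 had 0 counts in siHsc70 and 2 in siSCR, Rab25 had 2 and 1, Rab19 had 1 and 2, and Rab37 had 4 and 4 in the same order. A count of 0 allows up to 3 counts, or 0.167 CPM in siHsc70 and 0.156 CPM in siSCR. At this depth only large differences of these genes were detectable. The counting interval of the ratio was 0.439 to 2.01 for Rab27a and 0.209 to 2.24 for Rab3c, and wider for the others.

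Most genes of the machinery that loads, switches and reads RAB proteins were within 1.5-fold. Over 6 lists, 153 of 158 names were found and 148 genes were measured. The 1.5-fold rule was passed by 17 in the lower direction (11.5%, beside 12% of all measured genes) and by 7 in the higher (4.73%, beside 9.65%). The 2-fold rule was passed by 4 in the lower direction (2.70%, beside 5.14%) and by 2 in the higher (1.35%, beside 2.29%). The median was -0.082 beside -0.0034, and in TPM -0.20 beside -0.13. Of the genes for prenylation and GDI, 0 of 7 were past 1.5-fold, and the inhibitor gene Gdi2 was at 418 CPM in siHsc70 and 397 CPM in siSCR. Retromer and tether genes were the same in this respect, with 0 of 18 past 1.5-fold and a median of -0.081.

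Among 33 measured activator genes, 4 passed the 1.5-fold rule, all in the lower direction. By that rule 12% of all measured genes were lower and 9.65% higher. Madd, an exchange factor for RAB3 and RAB27 proteins, was at 8.79 CPM in siHsc70 and 26.2 CPM in siSCR, 2.98-fold lower (2.49 to 3.59). Among 35 GAP genes 5 were lower and 1 was higher at 1.5-fold. Evi5l, which encodes a GAP of the TBC family, was at 42.3 CPM in siHsc70 and 90.6 CPM in siSCR, 2.14-fold lower (1.97 to 2.34). Its counts are not whole numbers.

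Among 52 effector genes the 1.5-fold rule was passed by 8 in the lower and 5 in the higher direction. Of all measured genes 12% and 9.65% passed it in that order. Sytl2, encoding a synaptotagmin-like effector of RAB27, was at 6.67 CPM in siHsc70 and 31.3 CPM in siSCR, 4.69-fold lower (3.85 to 5.75). Sytl3 of the same family was low, at 0.167 CPM in siHsc70 and 1.87 CPM in siSCR, a ratio of 0.0892 (0.0176 to 0.282). Its mean of 1.02 CPM passed the minimum only through its level in siSCR. Ehbp1l1, an effector of RAB8 and RAB10, was 2.51-fold higher (1.85 to 3.46; 7.84 CPM in siHsc70 and 3.12 CPM in siSCR). Of the kinase and phosphatase genes, Lrrk1, whose product phosphorylates RAB7A, was 2.48-fold higher (1.73 to 3.62; 5.67 CPM in siHsc70 and 2.29 CPM in siSCR). Lrrk2 was at 23.9 CPM in siHsc70 and 20.1 CPM in siSCR.

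**Figure D5:**
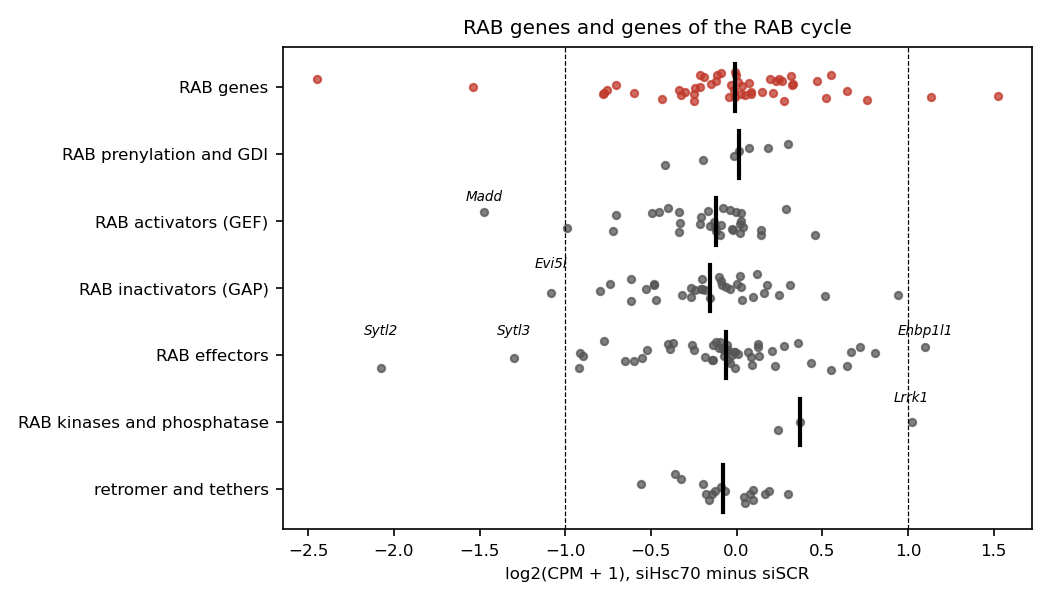
Difference in log2(CPM + 1), siHsc70 minus siSCR, for the measured RAB genes (red) and for the measured genes of 6 lists of the RAB cycle (grey), 1 point per gene with the vertical spread for legibility only. Thick bars are medians, between -0.15 and 0.37, dashed lines mark the 2-fold rule, and list genes past it are named.

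Because Madd, Sytl2 and Sytl3 all work with RAB3 or RAB27, further such partners were looked up in the lists after their values were seen, and are given as values only. Sytl4 was at 2.28 CPM in siHsc70 and 0.987 CPM in siSCR, a ratio of 2.31 (1.31 to 4.21). Sytl1, at 2.11 CPM in siHsc70 and 0.987 CPM in siSCR, had a ratio of 2.14 (1.20 to 3.93), and both are low genes. Rims2, encoding a scaffold that binds RAB3, was at 19.1 CPM in siHsc70 and 28.5 CPM in siSCR. Myrip, which links RAB27 to myosin, was at 27.9 and 24.0 CPM in the same order. Rims1, Sytl5, Exph5 and Unc13d had ratios from 0.959 to 1.77. With Madd, Sytl2 and Sytl3 included there were 13 partners, 11 of them measured, with a median difference of -0.010. At 1.5-fold 3 were lower, the same 3 that prompted the search, and 2 were higher (12% and 9.65% of all measured genes).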

How the data were processed

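RNA sequencing of 2 rat cultures, siHsc70 and siSCR, was read from 1 table of the whole series. The authors deposited estimated counts (read counts per gene, not normalised, per the file headers), FPKM (scaled for length and library size, per the file headers) and TPM (scaled for length to one common total per library, as deposited). Aligner, counting program, annotation and strandedness: not given in the sources used here. Per the submitters' processing notes the build was mm39, although the gene IDs are rat, so no coordinates of measured genes are given, and promoter windows are credited to RefSeq GRCr8.

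Estimated counts, of which 26.7% in siHsc70 and 26.5% in siSCR are not whole, were rounded to whole numbers and scaled by TMM in edgeR 4.0.16 (R 4.3.3), with factors of 0.992 for siHsc70 and 1.01 for siSCR. A gene was kept if its mean reached 1 CPM. Differences used a pseudocount of 1. No test was run, since each group had 1 library. Intervals are 95% exact Clopper-Pearson intervals (scipy 1.17.1), and PCR copies are not independent molecules. As a check of the calculation, independent whole counts (Poisson draws) were simulated for siHsc70 against siSCR over 13516 genes. There 95.4% of the intervals of 196 changed genes held the true ratio. The interval assumes such counts, so this coverage was built in. It does not cover divided counts or PCR copies.

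The members, gene lists and rules were chosen with earlier results of these data known. Named in full were the 11 members past 1.5-fold, the 5 with the highest mean TPM and 11 chosen by role, 22 genes in all, together with list genes past 2-fold (at most 4 each way). Other members are given as examples of their role. Values were recomputed under 10 other settings (pseudocount, minimum, scaling, TPM, FPKM, pseudogene rows). A further 2, leaving out rows with non-whole counts and adding Rab5al1 to Rab5a, were chosen after seeing the data.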

Additional observations from a re-analysis of the deposited data

How the results depend on the processing

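The main limit is 1 library per group: no replicate could be left out, and no difference can be set against the spread between cultures. No paired analysis was possible because each group has 1 library and the values come from no test. The members at least 2-fold lower numbered 2 under all alternatives but one, and those at least 2-fold higher numbered 2 under all but 2 of them. With rows of non-whole counts left out, 1 member was 2-fold lower (Rab9b is such a row), 1 was 2-fold higher (Rab1b is such a row) and 2 were 1.5-fold higher. With a pseudocount of 5, 1 member was 2-fold higher and 2 were 1.5-fold higher, and with a minimum mean of 5 CPM 2 were 1.5-fold higher, as Rab38 and Rab42 lie under that minimum. Under upper-quartile scaling 6 members were 1.5-fold higher and 6 lower (4 and 7 as reported), and over all alternatives run the 1.5-fold lower count was 5 to 8. The median of the members was 0.052 under upper-quartile scaling (all genes 0.055) and -0.13 with the deposited TPM (all genes -0.13), so it followed the shift of all genes. Of the 22 named members, 19 kept the sign of their difference under all alternatives run. The others were Rab5a (-0.11 to 0.087), Rab27b (-0.034 to 0.15) and Rab35 (-0.13 to 0.069). Changing the pseudocount or the minimum, or leaving rows out, cannot turn the sign of a single gene. The signs were thus tried only by the other settings. Scaling and the deposited TPM moved the named members by about the shift of all genes, so only differences near 0 could turn. Rab9b ran from -2.57 to -2.05, Rab33a from -1.75 to -1.14, Rab1b from 1.11 to 1.67 and Rab26 from 0.72 to 1.31. No row with the pseudogene ending -ps in its name or current RefSeq name belonged to a RAB gene of the table. Adding pseudogene rows thus touched the members through scaling alone. Pseudogenes under other names were not searched for. Depth limits the low genes: Rab42 had the widest counting interval of the measured members, 1.21 to 3.21.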
